A study of Mus musculus with 5 samples.

Results

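The 8 genes described here, Emp1, Slc10a6, Ptx3, Tgm1, Sphk1, Cd109, Tm4sf1 and B3gnt5, belong to the published set of ischemia-type reactive astrocyte genes, known as A2 genes. They were taken by their symbols from a table of 51912 annotated genes, and each symbol matched 1 row. Gene expression had been measured by sequencing of polyadenylated RNA from C57BL/6 mice (C57BL/6J in the source name), with 2 sham libraries and 3 stroke libraries. For stroke, a silicon-coated filament blocked the middle cerebral artery for 30 minutes under ketamine (100 mg/kg) and xylazine (10 mg/kg), and mice were kept if cerebral blood flow fell by at least 80%. Motor function was scored after 24 hours. The labels give all libraries the same treatment text, so the sources used here do not give what the sham operation left out, the tissue, the time of sampling, or the sex and age of the mice. No allele, transgene or drug beyond the anesthetics is named for either group. Nothing states that each library came from a separate animal, so the p-values measure only the spread between these 5 libraries, which may be technical.

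Astrocytes, glial cells that feed and buffer neurons, change shape and gene expression after injury, a state called reactive. Profiles of astrocytes purified from mouse brain gave a set of genes raised after many injuries (pan-reactive genes), a set raised mainly after inflammation induced by bacterial lipopolysaccharide (A1 genes) and a set raised mainly after closure of the middle cerebral artery (A2 genes). The A2 set holds membrane proteins, a secreted pattern recognition molecule, enzymes of lipid and protein modification and parts of the pathway through the transcription factor STAT3. None of these genes is restricted to astrocytes, and endothelial, immune or meningeal cells are known to express several of them. In bulk tissue such as this, fewer cells of a type and less RNA per cell cannot be told apart.

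Sites for AP-1 and STAT factors, both known to act in injured brain, were looked for upstream of the members, since these genes are described as an injury-induced group. RefSeq gave the 250 bases before a transcript start (GRCm38.p6) for 7 of the 8 members, in 13 windows, and none for Cd109. The letters TGANTCA (AP-1), TTCNNNGAA (STAT), TGACGTCA (cyclic AMP response element) and an NF-kB motif (GGG and TTTCC with any 2 bases between) were searched on both strands. AP-1 letters stood before a transcript start of 2 members, Emp1 and Sphk1, against 7.82% of 27025 genes with such a window. Counted by window these were 3 of 13 member windows, against 6.75% of 32851 windows. STAT letters stood before a transcript start of 3 members, Emp1, Sphk1 and Tgm1, against 8.13% of genes, or 4 of 13 member windows against 7.02% of windows. The members with a match have 2, 5 and 2 windows (Emp1, Sphk1 and Tgm1), some of which overlap, so they had more sequence to match in than a gene with 1 window. The other pair of motifs was found upstream of none of the 7, against 1.77% of genes for the cyclic AMP response element and 1.65% for NF-kB. The stretches around the matches are printed 5′ to 3′ on the gene's strand with the matched letters in capitals, since they show how near the motifs lie to each other in Emp1 and Sphk1. Every printed match lies inside the span of its gene as given below, before a RefSeq start within that span. The matched stretches are thus not upstream of the whole gene. A match is a description of these letters, and binding was not measured.
Emp1, AP-1, chr6:135362775-135362803, plus strand, match 145 bases before the start: gtctgtgtgtcTGAGTCAgagggagctac
Emp1, STAT, chr6:135362801-135362829, plus strand, match 120 bases before the start: tacaacagggTTCTTTGAAttgatggctc
Emp1, AP-1, chr6:135362895-135362923, plus strand, match 25 bases before the start: taaatccagacTGATTCAtagaaactcct
Emp1, STAT, chr6:135362899-135362927, plus strand, match 22 bases before the start: tccagactgaTTCATAGAAactcctttaa
Sphk1, AP-1, chr11:116531776-116531804, plus strand, match 50 bases before 1 start and 124 before another: gagcgtgtcgcTGAGTCAccttctcggaa
Sphk1, STAT, chr11:116531786-116531814, plus strand, match 41 bases before 1 start and 115 before another: ctgagtcaccTTCTCGGAAggcactcggg
Tgm1, STAT, chr14:55713647-55713675, minus strand, match 173 bases before the start: atgacctcagTTCCTAGAAaggagaaagt
Tgm1, STAT, chr14:55713538-55713566, minus strand, match 64 bases before the start: tcttccccttTTCCCAGAAactcggcccc

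In Emp1 the AP-1 and STAT matches nearest the start overlap each other. In Sphk1 the AP-1 and STAT matches lie side by side. Slc10a6, which like Emp1 passed the test described next, held none of the 4 motifs in its window.

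Of the 8 members, 2 rose in stroke, Emp1 and Slc10a6, and none fell. The background is low in both directions, since 0.775% of the 17420 tested genes were called higher and 0.786% lower in the authors' deposited table. A call is an adjusted p below 0.05 in the authors' Wald test with DESeq2, adjusted by the Benjamini-Hochberg method over the 17420 genes. Fold changes are stroke over sham throughout. Of the 8 members, 7 had a positive log2 fold change in the authors' deposited table. The median of the 8 was 1.43 on the log2 scale, against -0.02 over all tested genes. The 7 positive values and this median include Ptx3 and Tgm1, which were high in 1 stroke library alone, as described below. An unadjusted p below 0.05 was reached by 5 members, all positive, and by 1829 of the 17420 tested genes.

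The deposited table holds no values per library. Whole reads per library were recovered for all 8 members and for 6145 genes in all, from each gene's deposited mean, fold change and standard error. They are given as normalized reads, that is reads divided by the library's size factor, a measure of its depth. Size factors were 1.16, 1.13 and 1.12 in the libraries called stroke library 1, 2 and 3, and 0.945 and 0.734 in those called the deeper and the shallower sham library. The numbers follow the size factor and do not match the numbers in the labels. Stroke library 3 stood apart for these genes, since it held the highest level of all 8 members. Among all recovered genes, 13.9% had their highest level there. The deeper sham library held the highest level of all 9 recovered markers of choroid plexus and ependyma, whose summed normalized reads were 2022 there, 332 in the shallower sham library and 607, 619 and 611 in the stroke libraries. Of the 6145 recovered genes, 1686 had their highest level in the deeper sham library and 2319 in the shallower.

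**Figure D1:**
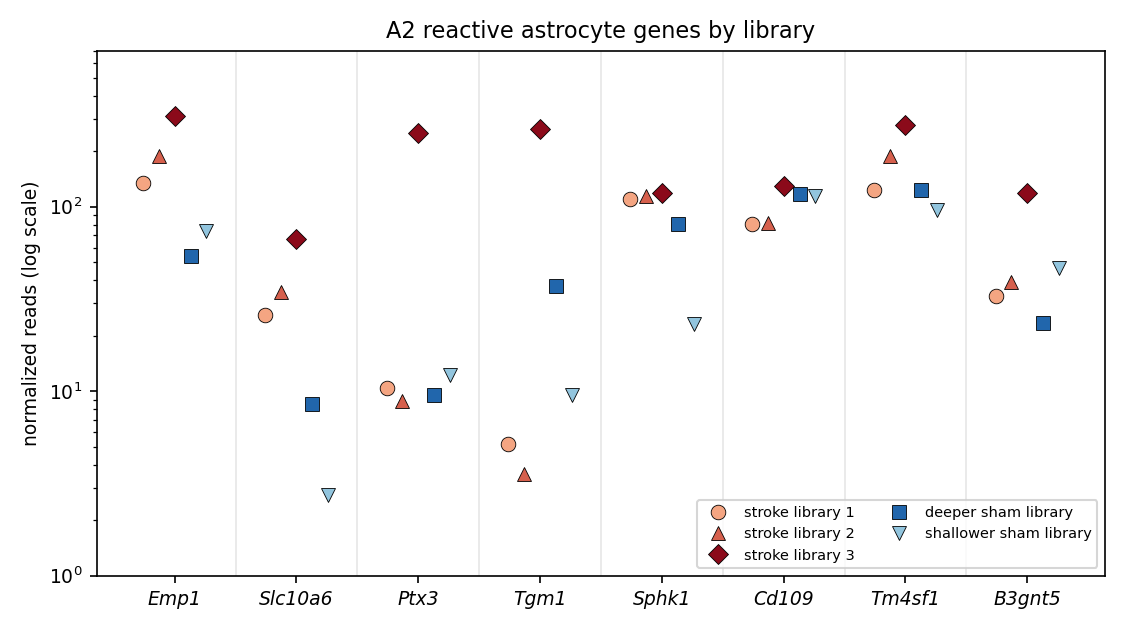
Normalized reads (log scale) of the 8 A2 genes in each of the 5 libraries, 1 point per library, with stroke libraries in reds and sham libraries in blues. The stroke points of Emp1, Slc10a6 and Sphk1 all lie above both sham points, and the diamond of stroke library 3 is the highest point for every gene.

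Emp1 encodes epithelial membrane protein 1, a small protein that crosses the membrane several times and belongs to the family of the myelin protein PMP22. Emp1 (ENSMUSG00000030208, chr6:135362545-135383173, plus strand, GRCm38) had 134, 188 and 311 normalized reads in stroke libraries 1, 2 and 3, and 54.0 and 73.6 in the deeper and the shallower sham library. The groups did not overlap, with the lowest stroke library (134) above the higher sham library (73.6). The stroke mean was 211 ± 90.6 normalized reads (SD, n = 3). Per the authors' deposited table Emp1 rose by 1.73 on the log2 scale (SE 0.46) with an adjusted p of 0.0175, a 3.32-fold difference with a 95% interval of 1.78 to 6.17.

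Slc10a6 encodes a sodium-dependent transporter that takes up sulfated steroid hormones. Slc10a6 (ENSMUSG00000029321, chr5:103605711-103629403, minus strand) had 25.9, 34.5 and 67.2 normalized reads in stroke libraries 1, 2 and 3, and 8.47 and 2.73 in the deeper and the shallower sham library. All stroke libraries again lay above both sham libraries. These levels rest on few reads, 30, 39 and 75 in stroke against 8 and 2 in sham. Its rise in the authors' deposited table was 2.89 on the log2 scale (SE 0.85) with an adjusted p of 0.0456, a 7.39-fold difference with a 95% interval of 2.33 to 23.5. This call lies just inside the threshold, and with the p-values of all genes that have one adjusted together it was lost (adjusted p = 0.0829).

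Tm4sf1 encodes a surface protein with 4 membrane spans that is abundant in endothelial cells. Tm4sf1 (ENSMUSG00000027800, chr3:57285611-57301988, minus strand) had 124, 189 and 277 normalized reads in stroke libraries 1, 2 and 3, and 124 and 95.4 in the deeper and the shallower sham library. Stroke library 1 and the deeper sham library were level, with the sham value the higher by under 1 read, so the groups overlapped. The authors' deposited table gave Tm4sf1 a value of 0.84 log2 units (SE 0.43) with an adjusted p of 0.473. Its recovered reads are less certain than those of the other members, since a set of reads was also found for 2 of 160 deliberately shifted fold changes of members, both of Tm4sf1.

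Cd109 encodes a protein of the alpha-2-macroglobulin family, anchored to the outer membrane, that binds TGF-beta and dampens its signal. Cd109 (ENSMUSG00000046186, chr9:78615546-78716253, plus strand) had 80.4, 81.3 and 129 normalized reads in stroke libraries 1, 2 and 3, and 116 and 114 in the deeper and the shallower sham library. Both sham libraries lay between stroke library 3 and the other stroke libraries. Cd109 was the only member with a negative log2 fold change in the authors' deposited table, -0.25 (SE 0.39) with an adjusted p of 0.940, and its 95% interval ran from -1.02 to 0.52 on the log2 scale.

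Ptx3 encodes the long pentraxin PTX3, a secreted pattern recognition molecule that binds microbes and complement factors and is made by many cell types under inflammatory signals. Ptx3 (ENSMUSG00000027832, chr3:66219910-66225805, plus strand) had 10.4, 8.84 and 252 normalized reads in stroke libraries 1, 2 and 3, and 9.53 and 12.3 in the deeper and the shallower sham library. Stroke libraries 1 and 2 were at the level of the sham libraries, and stroke library 3 alone held 87.5% of the gene's reads. Of the 8 log2 fold changes in the authors' deposited table that of Ptx3 was the largest, 3.05 (SE 1.22), and with an adjusted p of 0.243 it did not pass the test. Without stroke library 3 the difference was -0.16 on the log2(normalized reads + 1) scale (limma, adjusted p = 0.966).

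Sphk1 encodes sphingosine kinase 1, which makes the signaling lipid sphingosine-1-phosphate. Sphk1 (ENSMUSG00000061878, chr11:116530925-116536674, plus strand) had 111, 114 and 118 normalized reads in stroke libraries 1, 2 and 3, and 80.4 and 23.2 in the deeper and the shallower sham library. The stroke libraries lay close together, 114 ± 3.82 (SD, n = 3), and above both sham libraries, which differed from each other 3.47-fold. In the authors' deposited table Sphk1 stood at 1.13 log2 units (SE 0.54) with an adjusted p of 0.414, and did not pass the test. Its size depended on which sham library was kept. With limma on log2(normalized reads + 1) the difference was 2.25 without the deeper sham library (adjusted p = 0.00155) and 0.50 without the shallower (adjusted p = 0.379). The fit without the deeper sham library, in which the spread comes from the stroke libraries alone, called 5.89% of the 6145 recovered genes higher. Of the exon bases of Sphk1, 4.02% overlap the antisense gene Gm29292, whose mean was 2.80 normalized reads.

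B3gnt5 encodes the glycosyltransferase that starts the lacto-series and neolacto-series glycolipids. B3gnt5 (ENSMUSG00000022686, chr16:19760208-19772753, plus strand) had 32.8, 38.9 and 119 normalized reads in stroke libraries 1, 2 and 3, and 23.3 and 46.3 in the deeper and the shallower sham library. Stroke libraries 1 and 2 lay between the sham libraries, and stroke library 3 was 3.32 times the mean of the other stroke libraries. Its log2 value in the authors' deposited table was 0.88 (SE 0.72) with an adjusted p of 0.802.

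Tgm1 encodes transglutaminase 1, an enzyme that cross-links proteins and is best known from the outer layer of the skin. Tgm1 (ENSMUSG00000022218, chr14:55700009-55713926, minus strand) had 5.19, 3.54 and 262 normalized reads in stroke libraries 1, 2 and 3, and 37.0 and 9.54 in the deeper and the shallower sham library. Stroke libraries 1 and 2 were the lowest of the 5 and stroke library 3 the highest, with 84.9% of the gene's reads. The authors' deposited table gave Tgm1 a value of 1.95 log2 units with an SE of 2.07, larger than the value itself, and an adjusted p of 0.897. Its direction was not stable, at -1.92 without stroke library 3, -0.97 without the shallower sham library and -0.04 with all 5 libraries on the log2(normalized reads + 1) scale (limma). Of its exon bases, 5.76% overlap the antisense gene Gm49067, and the sources used here do not give the strand setting of the counting.

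Every stroke library lay above both sham libraries for 3 of the 8 members (Emp1, Slc10a6 and Sphk1), against 9.65% of the 6145 recovered genes. For none of the 8 did every stroke library lie below both sham libraries, against 16.9% of recovered genes. Stroke library 3 was at least 3 times every other library for 2 members, Ptx3 and Tgm1, against 0.504% of recovered genes. The members thus fell into 3 patterns over the libraries. In Emp1, Slc10a6 and Sphk1 the groups were separate, and in Ptx3 and Tgm1 stroke library 3 alone was high. In Cd109, Tm4sf1 and B3gnt5 the groups overlapped with smaller steps. Of these, B3gnt5 came nearest to the pattern of Ptx3 and Tgm1, with 119 normalized reads in stroke library 3 and at most 46.3 elsewhere.

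Each library was then left out in turn, which uses the same reads again and is no independent support for these patterns. With limma on log2(normalized reads + 1), the difference for Emp1 lay between 1.32 and 1.92 and that for Slc10a6 between 2.09 and 3.43 over the 5 fits. Sphk1 and Tm4sf1 were positive in all 5 fits, Sphk1 between 0.50 and 2.25 depending on the sham library kept, and Cd109 was negative in all 5. B3gnt5 fell close to 0 without stroke library 3, at 0.12, and without the deeper sham library, at 0.20. In these fits Emp1 and Slc10a6 passed the test without the deeper sham library only, with adjusted p-values of 0.0492 and 0.00368. That fit called 362 genes higher and 954 lower of 6145, so a call there is common. With all 5 libraries limma called 0 of 6145 genes, 500 of which had an unadjusted p below 0.05, so the calls for Emp1 (adjusted p = 0.607) and Slc10a6 (adjusted p = 0.607) rest on the authors' test.

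**Figure D2:**
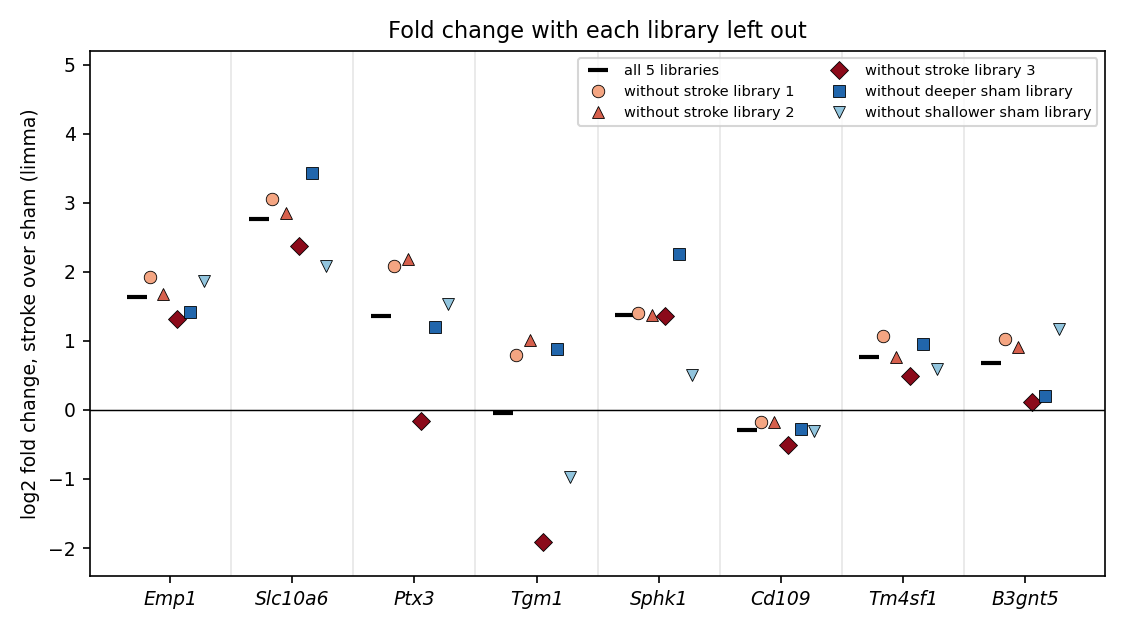
Log2 fold change, stroke over sham, of the 8 A2 genes from limma on log2(normalized reads + 1), with all 5 libraries (black bars) and with each library left out (1 symbol per omitted library). Emp1 and Slc10a6 stay between 1.32 and 3.43, whereas Ptx3 and Tgm1 move to -0.16 and -1.92 without stroke library 3.

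Levels of different genes were compared as mean normalized reads per kb of exon. In stroke the order was Tm4sf1 (47.2), Emp1 (35.6), Ptx3 (33.7), Tgm1 (28.6), Sphk1 (23.9), Slc10a6 (20.02), Cd109 (14.0) and B3gnt5 (12.2). In this order 7 of 7 neighbouring pairs overlapped in their range over libraries, so no neighbours could be told apart. In sham the order was Tm4sf1 (26.3), Cd109 (16.7), Sphk1 (10.9), Emp1 (10.7), Tgm1 (7.37), B3gnt5 (6.70), Ptx3 (4.06) and Slc10a6 (2.63). There 6 of 7 neighbouring pairs overlapped, and Tm4sf1 lay above Cd109 in both libraries. All members are low-abundance genes here, with a mean over libraries of 27.8 normalized reads for Slc10a6 and 162 for Tm4sf1 at the extremes.

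Of the other 5 genes of the A2 set, 2 were called higher, against 0.775% of all tested genes, and none lower. Their median log2 fold change was 1.04. Cd14, the co-receptor for lipopolysaccharide, had 150, 255 and 530 normalized reads in stroke libraries 1, 2 and 3, and 54.0 and 31.3 in the deeper and the shallower sham library, with no overlap. Cd14 rose, per the authors' deposited table, by 2.86 log2 units (SE 0.56) with an adjusted p of 0.000168. Ptgs2, which encodes the inducible cyclooxygenase COX-2, rose by 1.22 log2 units (SE 0.34) with an adjusted p of 0.0297 per the authors' deposited table. The transcription factor gene Stat3 stood at 0.64 log2 units (SE 0.29, adjusted p = 0.360) and the cytokine gene Clcf1 at 1.04 (SE 0.84, adjusted p = 0.797), both from the authors' deposited table. S100a10, which encodes a partner of annexin A2 and is often used as an A2 marker, stood at -0.27 log2 units (SE 0.24, adjusted p = 0.844) there, again per the authors' deposited table.

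By the same DESeq2 test 1 of 13 pan-reactive genes and 0 of 11 tested A1 genes rose, against 0.775% of all tested genes, and none fell. At an unadjusted p below 0.05 the counts were 6 and 2, all higher. Over all tested genes, 1829 of 17420 reached that level in either direction. The A1 gene Ugt1a1 was too low to be tested. Hspb1, a small heat shock protein gene, was the pan-reactive gene called, with 128, 273 and 332 normalized reads in stroke libraries 1, 2 and 3, and 41.3 and 39.5 in the deeper and the shallower sham library. Per the authors' deposited table Hspb1 rose by 2.60 log2 units (SE 0.48) with an adjusted p of 4.51e-05. The most abundant pan-reactive genes were not called: Gfap, the intermediate filament gene that marks the reactive state, stood at 0.18 log2 units (SE 0.88, adjusted p = 0.989) and the serpin gene Serpina3n at -0.84 (SE 0.55, adjusted p = 0.692), both from the authors' deposited table. Median log2 fold changes were 0.74 for pan-reactive and 0.44 for A1 genes, against 1.43 for the 8 members, a difference between lists that was not tested. These medians were not recomputed without stroke library 3, on which the positive values of Ptx3 and Tgm1 rest. Of the 11 A1 genes tested, the most abundant were Fkbp5, a co-chaperone of steroid receptors, at 0.04 (SE 0.37, adjusted p = 0.992) and the MHC class I gene H2-D1 at 0.70 (SE 0.24, adjusted p = 0.117), both in log2 units from the authors' deposited table. Stroke library 3 was the highest for 7 of 7 recovered pan-reactive genes and for 5 of 8 recovered A1 genes.

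**Figure D3:**
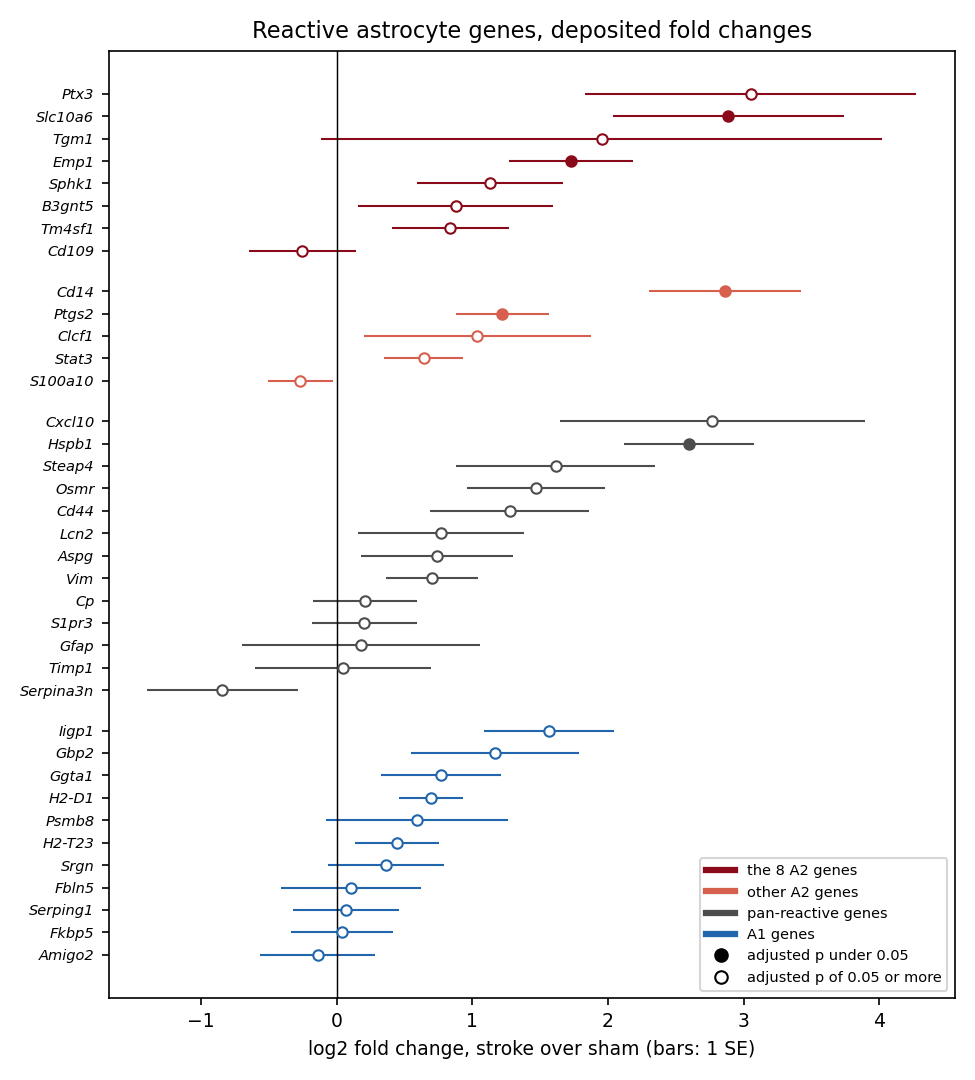
Log2 fold change, stroke over sham, with 1 SE (bars) from the authors' deposited table, for the 8 A2 genes, the other A2 genes, pan-reactive genes and A1 genes that were tested. Filled points passed an adjusted p of 0.05: Emp1, Slc10a6, Cd14, Ptgs2 and Hspb1, all to the right of 0.

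Pathway genes around the members showed few calls. Among genes that make, move, cleave or sense sphingosine-1-phosphate, the product of Sphk1, none of 17 tested was called by DESeq2 (1 with an unadjusted p below 0.05, lower), and the median log2 fold change was 0.03. The most abundant were Plpp3, a lipid phosphate phosphatase gene, at 0.18 log2 units (SE 0.28) and the receptor gene S1pr1 at 0.38 (SE 0.26), both from the authors' deposited table. The paralogue Sphk2, the other sphingosine kinase gene, stood at -0.08 log2 units (SE 0.34) with an adjusted p of 0.988 per the authors' deposited table.

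Around B3gnt5, none of 10 genes of lacto-series glycolipid synthesis was called by DESeq2 (1 with an unadjusted p below 0.05, higher), with a median of -0.06. Fut9, a fucosyltransferase gene of the Lewis X epitope, stood at -0.46 log2 units (SE 0.37) and B4galt6, a galactosyltransferase gene of lactosylceramide synthesis, at 0.22 (SE 0.20), both from the authors' deposited table. Of 11 genes of the TGF-beta pathway, whose ligand CD109 binds, none was called by DESeq2 either (1 with an unadjusted p below 0.05, higher), with a median of 0.24. The signal transducer genes Smad3 and Smad4 stood at 0.40 log2 units (SE 0.25) and 0.25 (SE 0.26), both from the authors' deposited table.

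Among 12 tested genes upstream or downstream of STAT3, 1 was called higher, and 5 had an unadjusted p below 0.05, all higher. Over all tested genes 0.775% were called higher, and 1829 of 17420 had an unadjusted p below 0.05 in either direction. Socs3, a feedback inhibitor that STAT3 itself induces, rose by 1.92 log2 units (SE 0.48) with an adjusted p of 0.0113 per the authors' deposited table. The abundant kinase gene Jak1 and the shared receptor gene Il6st (gp130) stood at 0.27 log2 units (SE 0.23) and 0.01 (SE 0.22), both from the authors' deposited table. The receptor gene Osmr and the cytokine gene Il6, chosen after their values were seen, stood at 1.47 (SE 0.51, adjusted p = 0.136) and 3.35 (SE 1.45, adjusted p = 0.319), both log2 values from the authors' deposited table. The median of the 12 was 0.84, and Clcf1, Stat3 and the pan-reactive gene Osmr are counted in this list as well.

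Paralogues of the members were called in 1 of 21 tested cases, a rise, against 0.775% of all tested genes called higher. Nptx2, a neuronal pentraxin gene related to Ptx3 and induced by neuronal activity, rose by 2.78 log2 units (SE 0.42) with an adjusted p of 3.69e-08 per the authors' deposited table. Its relatives Nptxr and Nptx1, the most abundant uncalled paralogues, stood at 0.24 log2 units (SE 0.20) and 0.19 (SE 0.22), both from the authors' deposited table. The median over the 21 was 0.24.

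The genes whose profile over the 5 libraries lay nearest to the called members were found by root mean square distance of centred log2(normalized reads + 1), among 2767 genes. For Emp1 these were Stx11 (distance 0.17), a syntaxin gene, Gbp3 (0.21), a guanylate-binding protein gene, and P2ry2 (0.24), a nucleotide receptor gene. None of these was called, with adjusted p-values of 0.369, 0.0691 and 0.301 in the authors' deposited table. For Slc10a6 the nearest was Cd14 (0.24) of the same A2 set, then the tubulin gene Tubb6 (0.41) and Gem (0.47), which encodes a small GTP-binding protein. Genes with a mean over 150 entered this comparison only if they were on a list used here. Unlisted genes at the level of Cd14, whose mean was 204, could thus not be found nearest. Tubb6 rose by 2.59 (adjusted p = 0.00466) and Gem by 2.31 (adjusted p = 0.00102) on the log2 scale in the authors' deposited table.

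Markers of the cell types that could carry these genes were checked beside the members. None of 10 astrocyte markers was called by DESeq2 (median log2 fold change -0.22, 1 with an unadjusted p below 0.05), and the most abundant, the glutamate transporter gene Slc1a2 and the aldolase gene Aldoc, stood at -0.33 log2 units (SE 0.30) and -0.24 (SE 0.30), both from the authors' deposited table. Neuronal, endothelial, microglial and macrophage, and fibroblast markers had 0 of 10 called in each list, with medians of 0.18, 0.38, 0.48 and -0.10. At an unadjusted p below 0.05 these lists held 2, 3, 3 and 0 genes, of which those of the endothelial and the microglial list were all higher. Abundant uncalled markers included Snap25 (0.05, SE 0.27) for neurons, Slc2a1 (0.24, SE 0.28) for endothelium and Igf2 (-0.36, SE 0.42) for fibroblasts, as log2 fold changes from the authors' deposited table. Mural cell markers had 2 of 10 called higher, the contractile genes Acta2 (1.32, SE 0.34, adjusted p = 0.0122) and Tagln (1.38, SE 0.35, adjusted p = 0.0128), from the authors' deposited table. All 10 mural markers had a positive value, with a median of 0.44, and 4 had an unadjusted p below 0.05. Choroid plexus and ependymal markers had 2 of 10 called lower, Ttr (-8.27, SE 1.80, adjusted p = 0.00155) and Folr1 (-4.05, SE 1.13, adjusted p = 0.0297), from the authors' deposited table. All 10 of these markers had a negative value, with a median of -0.81, and 4 had an unadjusted p below 0.05. The size of the Folr1 difference came from the deeper sham library, with 111 normalized reads there, 5.45 in the shallower sham library and 3.46, 3.54 and 3.58 in the stroke libraries. Reads of Ttr were not recovered. No marker was listed at 0 in the table. For comparison, 0.775% of all tested genes were called higher and 0.786% lower.

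Stroke library 3, where the members were highest, was not the highest for the recovered markers of most cell types. The 3 recovered microglial and macrophage markers summed to 305, 481 and 390 normalized reads in stroke libraries 1, 2 and 3, and to 219 and 244 in the deeper and the shallower sham library. The 2 recovered mural markers summed to 308, 388 and 314 in stroke and to 129 and 192 in sham. The 4 recovered fibroblast markers summed to 416, 665 and 511 in stroke and to 650 and 418 in sham. Tek, the 1 recovered endothelial marker, had 175, 148 and 254 in stroke and 175 and 208 in sham, so it was highest in stroke library 3. The 8 members summed to 523, 659 and 1535 in stroke and to 453 and 377 in sham. Astrocyte and neuron markers are too abundant for their reads to be recovered, so their levels per library are not known. The part of cell composition in the members' levels was not tested.

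**Figure D4:**
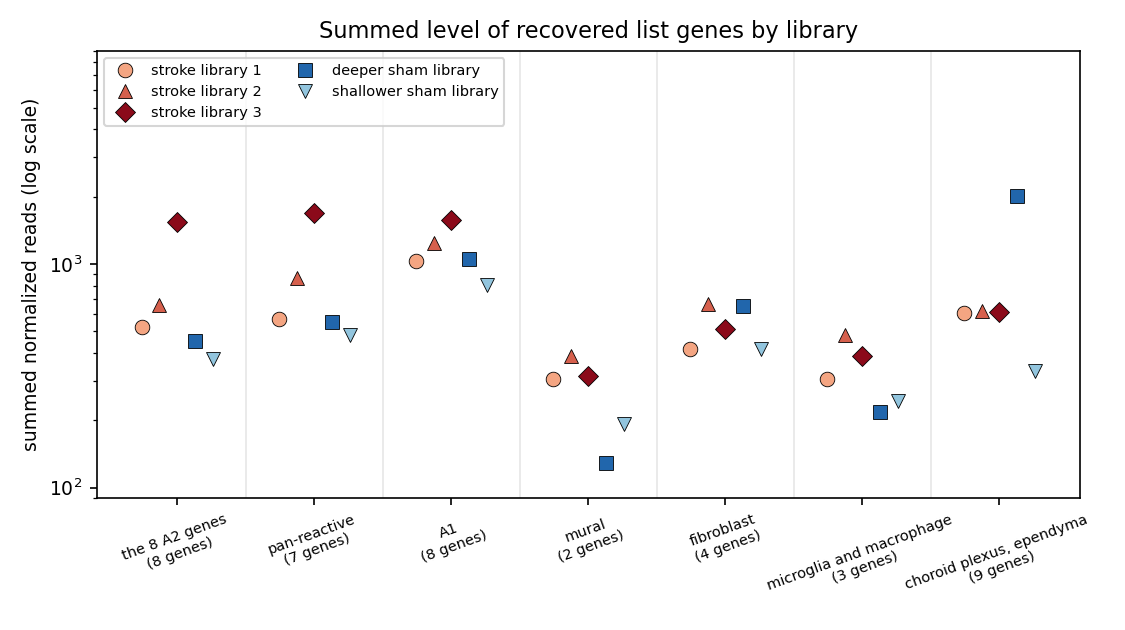
Summed normalized reads (log scale) per library over the recovered genes of the 8 A2 genes, pan-reactive genes, A1 genes and markers of 4 other cell types, 1 point per library. Stroke library 3 is the highest point for the A2 genes (1535), pan-reactive genes (1700) and A1 genes (1575), and the deeper sham library (2022) for choroid plexus and ependyma.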

How the data were processed

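Libraries were made from TRIzol and RNeasy RNA with a stranded mRNA kit, per the labels' protocols. For the steps from reads to table, GRCm38 was the build and the tools of the authors were DESeq2 1.14.1, featureCounts 1.5.1, STAR 2.5.2b and FastQC, per the submitters' processing notes. The sources used here do not give the annotation release, the strand setting or the total reads of a library. By the column names (per the file headers), the authors deposited for each gene a signal (the mean count after division by size factors), a log2 fold change with its SE, a Wald score, a p-value and its adjusted p-value. These values came from all 5 libraries, and adjusted p-values stood in 17420 of 51912 rows, down to a mean of 9.19. Nothing in the file names the numerator. Genes seen as 1 read in 1 library took 5 values of the mean, 3 of them with positive and 2 with negative fold changes, so a positive sign was taken to mean higher in stroke.

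The file holds no counts per library, so the count test that had been planned was replaced by the authors' Wald test with DESeq2. Whole reads were searched for in Python 3.11.15 (numpy 2.4.6, numba 0.67.0) and accepted where only 1 set matched the mean, the SE and, to 5e-06, the fold change. Reads were found for 6145 of 6192 genes tried, up to a mean of 150 (250 for listed genes). Of 500 genes with a shifted fold change 2 were accepted, against 498 unshifted, and on simulated data 194 of 194 were right. The recovered reads entered limma 3.58.1 (R 4.3.3, trend and robust variance) as an alternative. Positions and exon lengths are from GENCODE M21, matched by gene ID, and promoter windows from RefSeq, matched by symbol. The members and all gene lists were chosen with earlier results of these data known. Genes were named by rule: all 13 A2 genes, up to 3 called and 2 abundant uncalled genes of each other list, and the 3 nearest profiles of each called member with a mean of at least 20. A gene that the rule names is not reported here. Alternatives were another set of genes in the adjustment, a test against a fold of 1.5, centring on the median fold change, limma with pseudocounts of 1, 0.5 and 5, and leaving out each library.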

Additional observations from a re-analysis of the deposited data

How the results depend on the processing

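Of the 8 members, the number called higher was 2 in the authors' test, 1 (Emp1) with every gene that has a p-value in the adjustment, 1 (Emp1) among genes of at least 5 CPM, where only Emp1 and Tm4sf1 were tested, and 2 after centring on the median fold change. It was 0 against a fold of 1.5 and 0 in limma with pseudocounts of 1, 0.5 and 5. With each library left out it ranged from 0 to 3, the 3 being Emp1, Slc10a6 and Sphk1 without the deeper sham library. The number called lower was 0 in every setting run. All genes called numbered 272 in the authors' test, 187 with every gene that has a p-value, 142 at 5 CPM, 27 against a fold of 1.5 and 295 after centring. Those called higher numbered 135 of 17420, 99 of 31651, 109 of 11519, 17 of 17420 and 158 of 17420 in the same order. Without the deeper sham library limma called 1316 of 6145 genes (362 higher, 954 lower) and without the shallower 166, where the lone sham library is assumed to vary like the stroke libraries. Without any 1 stroke library it called 0, with 162 to 345 genes at an unadjusted p below 0.05.

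For Emp1 the log2 fold change of 1.73 did not pass against a fold of 1.5 (adjusted p = 0.813), and limma gave 1.64, 1.65 and 1.58 at pseudocounts of 1, 0.5 and 5, with 1.32 to 1.92 over the fits without 1 library. For Slc10a6 the value of 2.89 did not pass with every gene in the adjustment (adjusted p = 0.0829) or against a fold of 1.5 (adjusted p = 0.605), and limma gave 2.76, 2.88 and 2.13, with 2.09 to 3.43 without 1 library. Ptx3 ranged from -0.16 to 2.18 without 1 library. Tgm1 was -0.040 and -0.093 at pseudocounts of 1 and 0.5 and ranged from -1.92 to 1.01 without 1 library. Other A2 genes called higher numbered 2 in the authors' test, and 1 with every gene in the adjustment or against a fold of 1.5. Counts for pan-reactive and A1 genes did not change in the 4 settings run. The cause of these changes was not tested.

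No paired analysis was possible because the values per library cannot be tied to the replicate numbers in the labels. Precision is limited by having 2 sham libraries. On simulated counts for this comparison over 6145 genes, limma recovered 9% of genes changed 4-fold and 97.5% of those changed 16-fold, with 1 and 19 false calls. Every simulated gene had the same spread between libraries, the median of the recovered genes, and no library was made to differ. These shares therefore do not carry over to the real genes, whose spread differs from gene to gene.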

Other observations

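Ptx3 and Tgm1 were 2 of 31 recovered genes whose level in stroke library 3 was at least 3 times that in every other library. Stroke libraries 1 and 2 held 3 and 2 such genes by the same measure. The genes named here were chosen after their values were seen. The endothelial adhesion molecule gene Sele had 1.73, 5.30 and 201 normalized reads in stroke libraries 1, 2 and 3, and 2.12 and 4.09 in the deeper and the shallower sham library. Selp, which encodes P-selectin, had 6.05, 3.54 and 63.6 in stroke and 1.06 and 1.36 in sham. The scavenger receptor gene Msr1 had 14.7, 33.6 and 398 in stroke and 37.0 and 46.3 in sham. Il1rn, which encodes the interleukin-1 receptor antagonist, had 0, 7.07 and 206 in stroke and 2.12 and 0 in sham. The metalloproteinase gene Mmp3 had 0, 1.77 and 68.1 in stroke and 2.12 and 2.73 in sham. Of the 31 genes, 1 was called in the authors' deposited table, Lilr4b, with an adjusted p of 0.0351. Tgm1 and Ptx3 ranked the third and the fourth of the 31 by their level in stroke library 3, below Msr1 and Ccl9.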
